A study of Mus musculus with 6 samples.

Results

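B cells recognize antigen through a surface receptor made of an immunoglobulin and of a signaling pair, CD79a and CD79b. Coreceptors on the same membrane raise or lower this signal, and the transcription factor PAX5 holds the cells in the B lineage from the pro-B stage until they turn into antibody-secreting plasma cells. The inguinal fat pad surrounds a lymph node, and lymph nodes collect B cells in follicles, where mature cells carry CD21 and CD23. The 9 genes described here cover this range. *Cd79a* and *Cd79b* encode the receptor's signaling chains, *Blk* a Src-family kinase that acts next to it, and *Cd22* an inhibitory coreceptor. *Ms4a1* encodes CD20, a surface protein of B cells, *Cr2* encodes CD21, a receptor for complement fragments, and *Fcer2a* encodes CD23, the low-affinity IgE receptor of follicular B cells. *Pax5* encodes the identity factor, and *Vpreb3* a protein of pre-B and immature B cells. They were taken by symbol from a table of 19831 genes, and all 9 were listed.

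RNA from the inguinal adipose tissue (iAT) of mice at postnatal day 6 was sequenced. The design compared 3 wild-type samples (WT) with 3 samples from mice that lack neuropeptide FF receptor-1 (Npffr1-KO). The strain, the sex, the litters and the way the allele was made are not given in the labels, and neither is whether the inguinal lymph node was removed before RNA extraction. Nothing in the labels says whether the samples came from separate animals, so the spread between libraries may be partly technical. The authors deposited a single value per gene and genotype in normalized counts, which are read counts corrected for library size, and the values of all genes added up to 23137343 normalized counts in WT and 23640005 in Npffr1-KO. For genes with a mean of at most 80 normalized counts, the whole reads of each of the 6 libraries could be worked out from these values, and for higher genes they could not. In these low genes the listed value of a genotype was not the plain mean of its libraries. The 2 listed values mostly lay closer together than the plain means. Whether this also holds for higher genes is not known, so listed values and their ratios are not plain means. The targeted gene *Npffr1* had 6 reads in WT and 0 reads in Npffr1-KO, too few to check the labels of single libraries. The adipocyte genes *Adipoq* (adiponectin) and *Plin1* (the lipid droplet coat protein perilipin 1) had 37027 and 13552 normalized counts in WT, so markers that define adipose tissue were abundant.

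In the GENCODE M21 annotation of mouse genome build GRCm38, *Cd79a* (24897381 to 24902197) and *Cd22* (30865402 to 30880342) both lie on chromosome 7, and the other genes each lie on a chromosome of their own. *Cr2* lies on chromosome 1 from 195136811 to 195176716, *Fcer2a* on chromosome 8 from 3681737 to 3694175 and *Vpreb3* on chromosome 10 from 75943057 to 75949657. Start regions of 250 bases before and 50 bases after the transcript start were found in RefSeq (GRCm38.p6) for 6 of the 9 genes, *Cd79a*, *Pax5*, *Cd22*, *Cr2*, *Fcer2a* and *Vpreb3*. *Cd79b*, *Ms4a1* and *Blk* had no entry. The regions of *Cr2*, *Fcer2a* (the most upstream of its 3 starts) and *Vpreb3* are shown because these genes had the largest ratios between the genotypes, and capitals mark any match to the motifs named after them. They cover chr1:195176670-195176969 on the minus strand, chr8:3694125-3694424 on the minus strand and chr10:75948050-75948349 on the plus strand.
Cr2: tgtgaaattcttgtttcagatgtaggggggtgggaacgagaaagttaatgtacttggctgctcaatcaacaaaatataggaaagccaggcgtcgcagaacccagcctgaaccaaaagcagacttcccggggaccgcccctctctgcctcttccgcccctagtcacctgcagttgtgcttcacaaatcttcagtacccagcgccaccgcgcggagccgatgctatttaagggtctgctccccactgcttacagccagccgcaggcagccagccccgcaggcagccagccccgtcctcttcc
Fcer2a: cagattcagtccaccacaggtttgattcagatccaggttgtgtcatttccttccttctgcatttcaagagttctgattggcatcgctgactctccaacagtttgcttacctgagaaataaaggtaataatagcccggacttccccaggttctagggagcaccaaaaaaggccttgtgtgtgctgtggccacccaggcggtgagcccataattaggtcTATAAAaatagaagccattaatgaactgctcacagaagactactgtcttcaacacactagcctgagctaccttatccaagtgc
Vpreb3: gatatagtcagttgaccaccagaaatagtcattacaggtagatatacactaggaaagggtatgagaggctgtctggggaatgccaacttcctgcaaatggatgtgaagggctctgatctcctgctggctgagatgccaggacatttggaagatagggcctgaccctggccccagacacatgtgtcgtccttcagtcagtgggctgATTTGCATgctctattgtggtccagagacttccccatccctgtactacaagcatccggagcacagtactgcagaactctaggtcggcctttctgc

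Both strands were searched for the octamer ATTTGCAT, to which octamer factors of B cells bind, for the early B cell factor motif, TCCC and GGGA with any 2 bases between them, for the ETS-type motif AGGAAGTG and for TATAAA. These motifs were chosen with the sequences in view, and no start region shown held more than 1 match. The octamer was found in *Vpreb3*, 45 bases before the start, and is present in 1.74% of the 32851 start regions of all genes. *Fcer2a* held TATAAA 33 bases before the start shown, as 13.6% of all start regions do. In *Cd79a* the ETS-type motif lay 55 bases before the start, and 4.07% of all start regions hold it. In *Cd22* the early B cell factor motif lay 49 bases before the start, and 0.904% of all start regions hold it. The 60 bases around both matches are shown for these receptor genes, from chr7:24897416-24897475 on the plus strand and from chr7:30879044-30879103 on the minus strand.
Cd79a: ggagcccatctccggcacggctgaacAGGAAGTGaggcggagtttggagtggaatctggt
Cd22: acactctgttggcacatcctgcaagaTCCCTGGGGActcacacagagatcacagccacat

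None of the 4 motifs was found in the regions of *Cr2* and *Pax5*. A match describes the letters of these windows and was not tested as a binding site.

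Several of the B cell genes were prominent in the iAT of young WT mice. To set levels of different genes side by side, values were scaled to the length listed for each gene and are given as normalized counts per kilobase (kb). On this scale the median of all listed genes was 103 in WT. *Cd79a* had 2549 normalized counts per kb in WT, more than 96.8% of all listed genes, and 3203 in Npffr1-KO. *Cd79b*, its partner in the receptor, had 1427 normalized counts per kb in WT and 1716 in Npffr1-KO, so that *Cd79a* exceeded it by 1.79-fold in WT and 1.87-fold in Npffr1-KO. *Fcer2a* followed with 653 normalized counts per kb in WT and 991 in Npffr1-KO. The plot of levels shows that the order of the 9 genes was the same in both genotypes.

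Below these followed the other surface and signaling genes. *Ms4a1* had 578 normalized counts per kb in WT and 687 in Npffr1-KO, and *Cd22* had 389 and 427. The identity factor *Pax5* had 264 normalized counts per kb in WT and 333 in Npffr1-KO, and the kinase *Blk* had 227 and 235. All these genes lay above the median of the listed genes. The lowest levels were those of *Vpreb3*, with 87.6 normalized counts per kb in WT and 132 in Npffr1-KO, and of *Cr2*, with 20.8 and 46.8. In WT both lay below the median of the listed genes. *Cd79a* was thus 122-fold above *Cr2* in WT, and 68.5-fold in Npffr1-KO. Per length, 5 of the 9 genes lay above the 75th percentile of all listed genes in WT. Because a genotype has a single value, neighbors in this order cannot be compared with their spread, and the length listed may differ from that of the transcripts made here. In particular, the listed length of *Pax5* is 1208 bases, while its annotated exons cover 8853 bases.

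**Figure D1:**
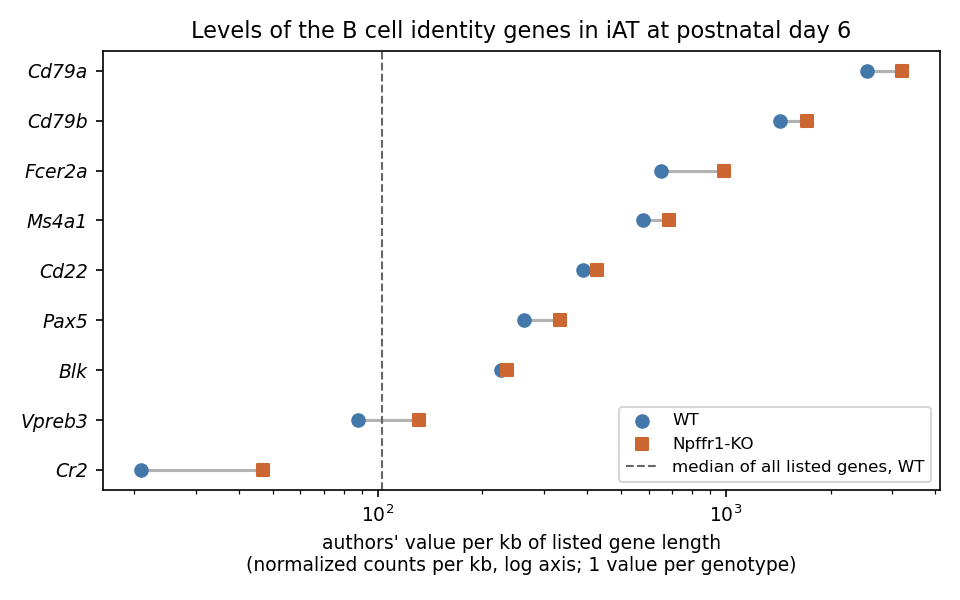
Levels of the 9 B cell identity genes, as the authors' value per kb of listed gene length (normalized counts per kb, log axis), with 1 circle for WT and 1 square for Npffr1-KO per gene. *Cd79a* is highest with 2549 in WT, *Cr2* lowest with 20.8, and every square lies to the right of its circle; the dashed line is the median of all listed genes in WT, 103.

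Genes of other stages of the B lineage were read on the same scale. Genes that rearrange or stand in for immunoglobulin in early B cell precursors had few reads. The recombinase genes *Rag1* and *Rag2*, the terminal transferase gene *Dntt* and the surrogate light chain genes *Vpreb1*, *Vpreb2* and *Igll1* had between 0.728 and 3.43 normalized counts per kb in WT, with a median of 1.80. They were singled out of the list of early B cell genes after their values were seen. The other genes of that list, *Cd93* and *Il7r*, are shared with other cells. *Cd93*, also an endothelial gene, had 1908 normalized counts per kb in WT, and *Il7r*, also a T cell gene, had 165. *Vpreb3*, with 87.6 normalized counts per kb in WT, was above all 6 of these early genes.

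Reads per library were available for the early genes. Summed over these 6 genes, the 3 WT libraries had 32, 17 and 24 reads, and the 3 Npffr1-KO libraries had 17, 12 and 16. After correction for library size this was 23.8 ± 7.13 in WT and 15.3 ± 2.83 in Npffr1-KO (SD, n = 3 each). The ranges of the genotypes met, with 16.6 as the lowest WT value and 17.5 as the highest Npffr1-KO value. *Igll1* alone had 8, 2 and 3 reads in WT and 1, 0 and 0 in Npffr1-KO, so that every Npffr1-KO library lay below every WT library (exact permutation p = 0.10, two-sided, the smallest that 3 libraries against 3 allow). Of 4516 genes whose reads were worked out and that averaged 2 or more, 9.68% had the same order of libraries. The share of its reads in Npffr1-KO was 7.14%, with an exact 95% binomial interval from 0.181% to 33.9% for counting error alone.

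At the other end of the lineage, the 10 plasma cell genes spanned 0.643 to 2049 normalized counts per kb in WT and so overlapped the range of the 9 identity genes. Several of them were low. *Jchain*, which encodes the chain that joins IgA and IgM antibodies, had 9, 7 and 21 reads in the WT libraries, and the Npffr1-KO libraries had 29, 8 and 14. The values of the genotypes overlapped, with means of 12.1 ± 7.60 and 17.1 ± 10.1 normalized reads (SD, n = 3 each). *Tnfrsf17*, which encodes the plasma cell receptor BCMA, had 29 reads in WT and 15 in Npffr1-KO, again with overlapping libraries. The chaperone gene *Mzb1*, which marginal zone B cells also express, was higher with 258 normalized counts in WT. *Xbp1*, *Sdc1* and *Irf4*, the most abundant of the 10 plasma cell genes listed, are used by many other cells and had 4632, 744 and 536 normalized counts in WT. The constant region genes of immunoglobulins were not analysed here.

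**Figure D2:**
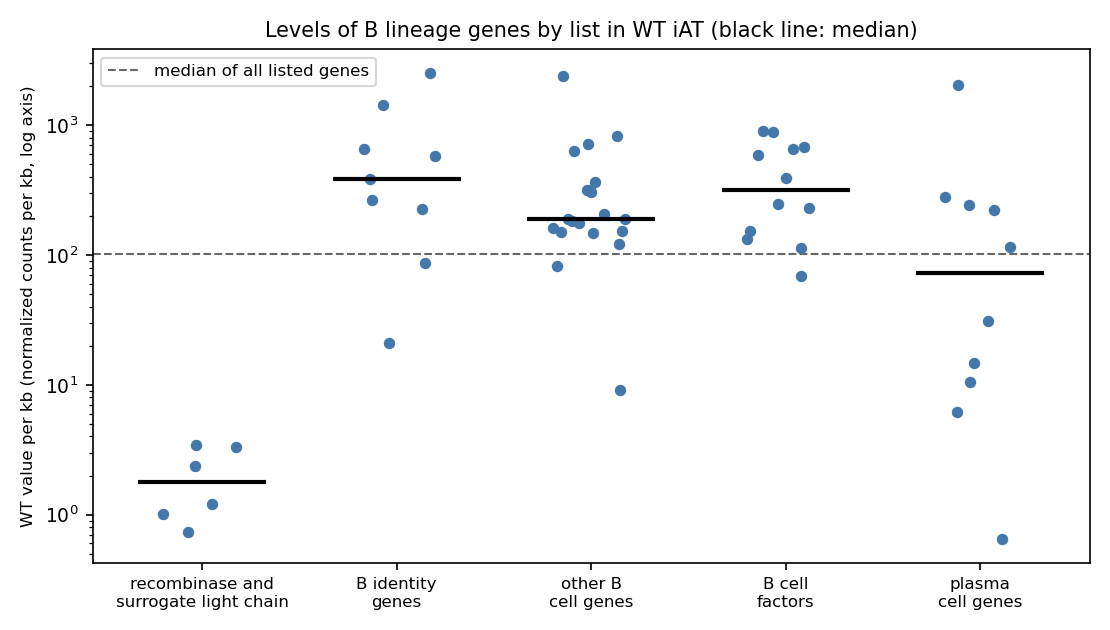
Levels of B lineage genes in WT iAT by gene list (normalized counts per kb, log axis), with 1 point per gene and the median of each list as a black line. The 6 recombinase and surrogate light chain genes lie between 0.728 and 3.43, while the 9 B identity genes have a median of 389, above the dashed median of all listed genes at 103.

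Next, the genotypes were compared. All 9 genes had a higher value in Npffr1-KO than in WT, but for most of them the gap was small. The log2 of the ratio of the Npffr1-KO value to the WT value had a median of 0.33 over the 9 genes and lay between 0.05 and 1.17. Over the 15309 genes that averaged 10 or more normalized counts, the median was 0.01 and the 25th and 75th percentiles were -0.16 and 0.19, with 51.2% of these genes higher in Npffr1-KO. As no value per sample is listed for genes of this abundance, no test was run on 8 of the 9 genes, and a ratio over 1.5 was used as the limit for a change in the listed values. Of the 9 genes, 3 were past this limit toward Npffr1-KO, and 2.78% of the 15309 genes were. None was past it toward WT, and 3.12% of the 15309 genes were.

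The 3 genes were *Cr2*, *Fcer2a* and *Vpreb3*. *Cr2* had 129 normalized counts in WT and 290 in Npffr1-KO, a 2.25-fold ratio that exceeded those of 99.7% of the 15309 genes. Follicular dendritic cells, the stroma of B cell follicles, also carry its product. *Fcer2a* had 1406 normalized counts in WT and 2133 in Npffr1-KO, a 1.52-fold ratio. *Vpreb3* had 52.7 and 79.4, a 1.51-fold ratio. The last 2 thus lay just past the limit, and the next gene below it, *Pax5*, had a 1.26-fold ratio.

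The signaling chains of the B cell receptor were not past the limit. *Cd79a* had 3383 normalized counts in WT and 4250 in Npffr1-KO, a 1.26-fold ratio, and *Cd79b* had 1781 and 2141, a 1.20-fold ratio. *Ms4a1* had 1189 and 1414 normalized counts, a 1.19-fold ratio, and *Pax5* had 318 and 403. The inhibitory coreceptor *Cd22* had 1573 and 1729 normalized counts, a log2 ratio of 0.14. *Blk*, with 561 and 581 normalized counts, had a 1.04-fold ratio and lay near the middle of all genes. None of these 6 genes was past the limit of 1.5-fold. In bulk tissue more B cells and more RNA of a gene per B cell cannot be told apart.

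The ratio moved with gene length across all genes, which bears on the count of 3: of 20 length classes, the shortest genes had a median log2 ratio of 0.27 and the longest of -0.15. When each log2 ratio was set against the median of genes of like length, all 9 genes remained higher in Npffr1-KO, with a median of 0.17. *Cr2*, a long gene, then had a log2 ratio of 1.29, *Fcer2a* of 0.54 and *Vpreb3*, the shortest of the 9, of 0.32. The rest were lower, with *Cd22* at 0.20, *Ms4a1* and *Pax5* at 0.17, *Cd79a* at 0.16, *Cd79b* at 0.09 and *Blk* at 0.02. Only *Cr2* stayed past 1.5-fold on this scale. The listed values of low genes also lay closer together than the plain means of their reads. Among 1257 genes whose reads were worked out and whose log2 ratio exceeded 0.1 in size, at a mean over 25, the log2 ratio of the plain means was 1.16 times the listed one at the median, and had the same direction in 100% of them.

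*Vpreb3* was the one gene of the 9 whose reads could be worked out for each library. In normalized reads, the 3 WT libraries had 36.7, 45.0 and 71.5, and the 3 Npffr1-KO libraries had 87.7, 62.6 and 92.7. The highest WT library lay above the lowest Npffr1-KO library, so the genotypes overlapped. The means were 51.1 ± 18.1 in WT and 81.0 ± 16.2 in Npffr1-KO (SD, n = 3 each), a 1.59-fold ratio of the plain means. On the scale of log2(normalized reads + 0.5), the difference was 0.70 with a standard error of 0.33, and the exact permutation test over the 6 libraries gave p = 0.20 (two-sided), where 0.10 is the smallest p possible. The difference in *Vpreb3* was thus not distinguished from the spread between libraries. The libraries rest on 156 reads in WT and 238 in Npffr1-KO. The share of reads in Npffr1-KO was 60.4%, with an exact 95% binomial interval from 55.4% to 65.3% that covers counting error only, and 49.0% would be given by equal levels.

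**Figure D3:**
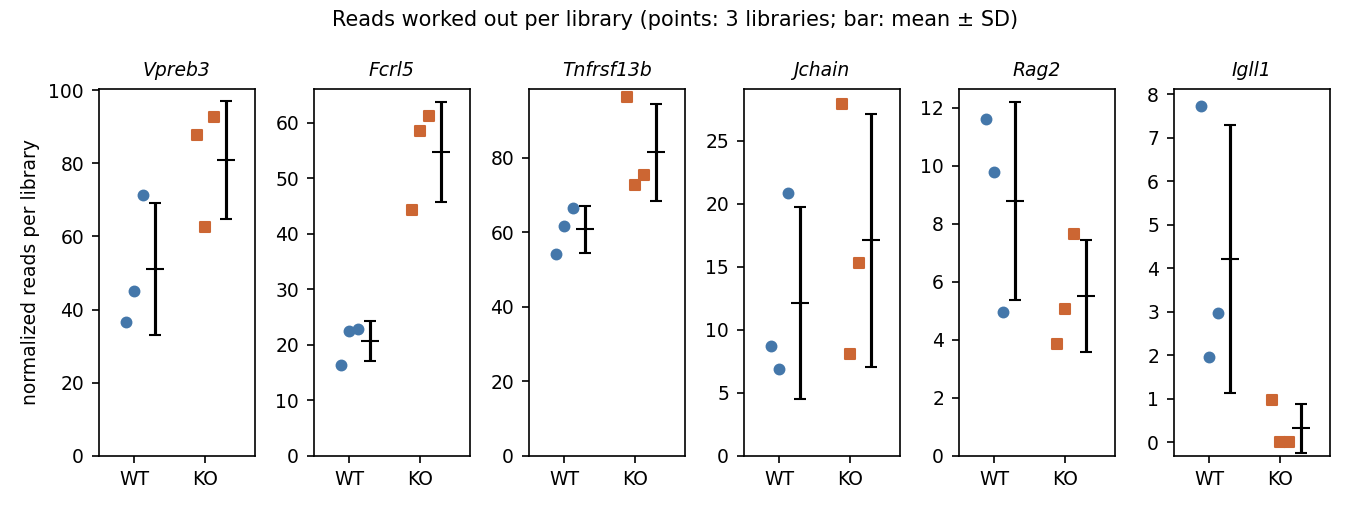
Normalized reads of 6 B lineage genes in each library, with 3 circles for WT and 3 squares for Npffr1-KO and the mean ± SD beside them (each panel has its own linear axis). The genotypes overlap for *Vpreb3*, *Jchain* and *Rag2*, while every Npffr1-KO library lies above every WT library for *Fcrl5* and *Tnfrsf13b* and below for *Igll1*.

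The wider set of B cell genes gave a similar median. Of 20 other B cell genes, such as coreceptors, adaptors and Fc receptor-like genes, all 20 were higher in Npffr1-KO with a median log2 ratio of 0.33, and 2 were past 1.5-fold. After centring on genes of like length, *Tnfrsf13c* alone of the 20 was no longer higher, and the median was 0.22. *Cd37*, a tetraspanin and the most abundant of the list, had 2958 normalized counts in WT and 3735 in Npffr1-KO. The kinase *Lyn*, shared with myeloid cells, had a 1.02-fold ratio. The 2 genes past the limit were *Fcrl5*, an Fc receptor-like gene of B cell subsets, and *Blnk*, an adaptor shared with myeloid cells, which had 398 normalized counts in WT and 649 in Npffr1-KO, a 1.63-fold ratio.

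For *Fcrl5* and for *Tnfrsf13b*, which encodes the TACI receptor for B cell survival factors, reads per library were available too. *Fcrl5* had 16.4, 22.5 and 22.8 normalized reads in the WT libraries, and the Npffr1-KO libraries had 44.3, 58.5 and 61.1. All 3 Npffr1-KO libraries lay above all 3 WT libraries, with a 2.65-fold ratio of the plain means. The log2 difference was 1.39 with a standard error of 0.21 (exact permutation p = 0.10, the smallest possible). *Tnfrsf13b* had 54.1, 61.7 and 66.5 normalized reads in WT and 96.4, 72.7 and 75.3 in Npffr1-KO. Its libraries did not overlap either, and its log2 difference was 0.41 with a standard error of 0.15 (exact permutation p = 0.10). The log2 ratio of its listed values was 0.39, and 0.12 after centring on genes of like length. For *Fcrl5* these were 1.21 and 1.18. Of 3491 genes whose reads were worked out and that averaged 5 or more, 6.02% had all Npffr1-KO libraries above all WT libraries, and 10.4% had them all below. Of the 9 identity genes only *Vpreb3* could be placed, and it belonged to neither set because its libraries overlapped. Reads of *Cr2* and *Fcer2a* per library were not worked out, so whether their libraries overlap is not known. *Tnfsf13b*, which encodes BAFF, a survival factor that TACI binds, had 29.0, 22.5 and 39.7 normalized reads in WT and 51.1, 41.4 and 32.7 in Npffr1-KO, with overlapping libraries.

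B cell transcription factors besides *Pax5* were higher for 9 of 12 genes, with a median log2 ratio of 0.23, and 1 was past 1.5-fold. This was *Bcl6*, a factor of germinal center B cells that adipocytes and other cells also express, with 514 normalized counts in WT and 1085 in Npffr1-KO. *Ebf1*, which acts upstream of *Pax5* in B cells and is also an adipocyte factor, had 4568 normalized counts in WT and 3914 in Npffr1-KO. *Tcf3* had 2981 and 2965, and *Ikzf1* had 1901 and 2485. The third lower gene was *Bach2*, and after centring on genes of like length *Bach2* and *Tcf3* turned higher. Plasma cell genes were divided, with 4 of 8 genes of sufficient mean higher and 4 lower, a median of 0.03, and none past 1.5-fold.

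Other cells that share a lymph node with B cells were read in the same way. All 17 T cell genes were higher in Npffr1-KO, with log2 ratios of 0.49 or more and a median of 0.64, and 12 of them were past 1.5-fold. Among these were *Cd3d*, *Cd3e*, *Cd3g*, *Lck*, *Zap70*, *Lat*, *Cd2*, *Cd5*, *Cd6*, *Cd8b1* and *Ubash3a*. After centring on genes of like length, 6 of the 17 were past it, *Cd28* among them. *Tcf7*, a T cell transcription factor and the most abundant of the list, had 2648 normalized counts in WT and 3841 in Npffr1-KO. *Lck*, the kinase of the T cell receptor, had 1675 and 2798, and *Cd4* had 1514 and 2209. Of the 9 B cell identity genes, 6 had a log2 ratio below that of every T cell gene, *Fcer2a* and *Vpreb3* lay within the T cell range, and *Cr2* lay above it. After centring the T cell genes had log2 ratios of 0.37 or more, and *Vpreb3* fell below them too. Whether the lists differ was not tested, since the values have no replicates.

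The levels of 10 genes of lymph node stroma and organization ranged from 18.2 to 8359 normalized counts per kb in WT. The list also holds *Ltb* and *Lta*, cytokine genes of lymphocytes, with log2 ratios of 0.54 and 0.37, which enter its median and sum. *Ccl21a*, the chemokine of T cell zones, had 5536 normalized counts in WT and 7100 in Npffr1-KO. *Glycam1*, a mucin of high endothelial venules that mammary tissue also makes, had 5392 and 5736, and *Ccl19* had 3679 and 4329. *Cxcl13*, which draws B cells into follicles, was the single gene past 1.5-fold of the 10 in this list, with 1123 normalized counts in WT and 1735 in Npffr1-KO. *Madcam1*, an addressin of venules, went the other way with 1508 and 1292. The summed values of the list were 19693 normalized counts in WT and 23576 in Npffr1-KO, with 9 of 10 genes higher and a median log2 ratio of 0.30. After centring on genes of like length *Ccl19* and *Glycam1* turned lower, *Cxcl13* fell below 1.5-fold with a log2 ratio of 0.46, and the median was 0.10. No marker of this list was at 0, the lowest being *Tnfsf13b* with 31.2 in WT. The part that the amount of lymph node in each sample has in the B cell values was not tested. Macrophage genes, which matter because *Blnk*, *Lyn*, *Syk* and *Btk* are shared with these cells, were higher for 6 of 10 genes with a median log2 ratio of 0.14, and for 7 after centring on gene length, and none was past 1.5-fold on either scale. Their summed values were 23458 normalized counts in WT and 27021 in Npffr1-KO. *Lyz2*, which made up most of the gap between these sums, had 9262 and 11951, *Csf1r* had 4594 and 4379, and *C1qa* had 2871 and 3389.

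**Figure D4:**
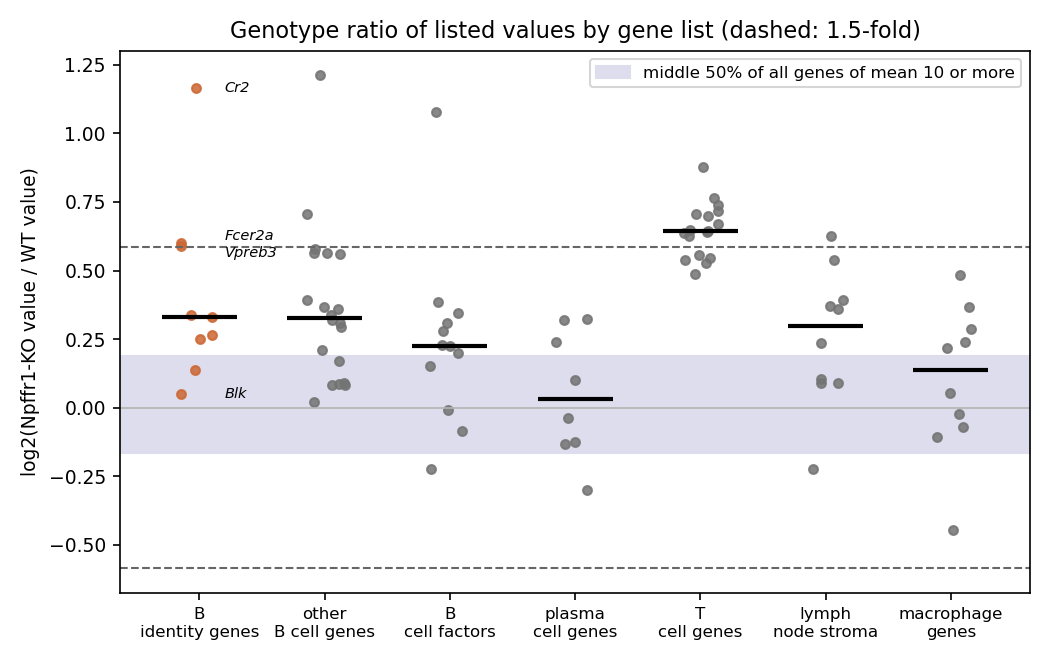
Log2 of the ratio of the Npffr1-KO to the WT value for each gene that averaged 10 or more normalized counts, by list, with the list median as a black line, 1.5-fold as dashed lines and the range between the 25th and 75th percentiles of all such genes shaded. *Cr2* stands at 1.17 and *Blk* at 0.05, and the median of the B identity genes is 0.33 against 0.64 for the T cell genes.

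How the reads were assigned can affect some of these values. Of the sequences of 31 bases in annotated transcripts, 12.2% of those of *Cd79a* also occur in another gene, *Gm32220*. For *Cd22* this share was 10.7%, with 3674 other genes, and for *Pax5* 7.66%, with 2. *Cd22* overlaps *Gm29439* on the opposite strand over 9.50% of its exon bases. *Pax5* overlaps *5730488B01Rik* over 7.18% and *Gm12462* over 1.41% of its exon bases, both on the opposite strand. Whether the counting used the strand is not given in the sources used here. *Cd79b*, *Blk* and *Vpreb3* shared no such sequence, *Cr2* shared 0.0242%, and *Fcer2a* and *Ms4a1* shared 1.97% and 2.34%.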

How the data were processed

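RNA from iAT was extracted with TRIzol, and 3 WT and 3 Npffr1-KO samples at postnatal day 6 were grouped by their labels. The signal values deposited by the authors are 1 normalized count per gene and genotype. The submitters' processing notes name Bowtie2, RSEM and DESeq2, without roles. Their versions, the genome build and the annotation were not stated in any source used here. The table further holds the authors' own fold changes, p-values and adjusted p-values, and none of these was used, nor was a shorter table of 90 genes.

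The mean of both columns takes 6 distinct values in genes with a single read, which gave the 6 library size factors, from 0.916 to 1.04. For 3 of these values the WT column was the higher one, and for 3 the Npffr1-KO column. Each library was assigned to the genotype of the higher column. Libraries were not tied to sample numbers. Since the mean of both listed values is the mean of the normalized reads, a search over whole-read combinations was run on the 7274 genes averaging 80 or less. Of these, 97.4% had exactly 1 match within the rounding of the listed values, 182 had none and 6 had several. Of 200 means from 50 to 80 shifted on purpose, 12 had a match by accident. *Vpreb3* and *Tnfrsf13b* lie in this range, with means of 66.0 and 71.1. The search was tested on simulated data built on the same relation between reads and listed values, where it found the right reads for 100% of 2633 genes. The real genes that the simulation started from all averaged less than *Vpreb3* and *Tnfrsf13b*. It therefore says little about genes as high as these. The reads are not independent molecules, and intervals cover counting error only.

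Single genes were tested by an exact permutation test over libraries on log2(normalized reads + 0.5), two-sided, with scipy 1.17.1. The limit for listed values was 1.5-fold at a mean of at least 10. Centring on gene length used 20 classes of equal size. The genes and lists were chosen with earlier results of these data known. All 9 genes are named, and of each other list the 3 with the highest mean and those past 1.5-fold. Names outside this rule (*Rag1*, *Dntt*, *Vpreb1*, *Vpreb2*, *Igll1*, *Jchain*, *Mzb1*, *Tnfrsf17*, *Tnfrsf13b*, *Tnfrsf13c*, *Tnfsf13b*, *Syk*, *Btk*, *Bach2*, *Cd28*, *Madcam1*, *Ltb*, *Lta*, *Plin1* and *Klk1*) were chosen after their values were seen. Some genes that this rule names are not reported here.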

Additional observations from a re-analysis of the deposited data

How the results depend on the processing

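All 9 B cell identity genes kept a higher value in Npffr1-KO after centring on genes of like length, and *Vpreb3* also in plain means. Centring on the median gene moved each log2 ratio by only 0.01, less than the smallest of the 9. Pseudocounts of 1 and 10 cannot change a direction, and they left the median log2 ratio at 0.33. The smallest log2 ratio was that of *Blk*, 0.02 after centring on genes of like length. The count past 1.5-fold depended on the limit: 5 of 9 genes were past a ratio of 5 to 4 toward Npffr1-KO and 0 toward WT (12% and 11.6% of all genes), 1 was past 2-fold (0.483%), and 1 after centring on gene length (2.22%), where *Fcer2a* and *Vpreb3* fell below it. Leaving out the minimum mean could not change the count, because all 9 genes lay above it. For *Vpreb3* the log2 difference lay between 0.49 and 0.97 when each library was left out in turn, without a change of direction, and p was 0.20 with pseudocounts of 0.1 and 1 and with libraries scaled by the reads of low genes. Under that scaling 7.59% of the genes with reads per library had all Npffr1-KO libraries above WT and 8.94% all below, a closer balance than 6.02% and 10.4%. The median of the plasmacytoid dendritic cell list was 1.03 without a minimum mean and 0.60 with it. That of early B cell genes was 0.09 over the 2 genes of sufficient mean and -0.18 over all 8. No paired analysis was possible because the columns carry no sample numbers. Depth per library is unknown for genes above a mean of 80, which leaves 8 of the 9 genes without a spread.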

Other observations

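Plasmacytoid dendritic cells share several genes with B cells, and their genes were read for that reason. *Siglech*, their defining lectin, had 114 normalized counts in WT and 149 in Npffr1-KO. *Ly6d*, also a gene of B cell progenitors and keratinocytes, had 846 and 1282 normalized counts, a 1.51-fold ratio that fell to a log2 ratio of 0.33 after centring on genes of like length. *Cox6a2*, also a muscle gene, had 7.73, 8.81 and 13.9 normalized reads in the WT libraries, and the Npffr1-KO libraries had 53.0, 26.2 and 34.9, without overlap. *Klk1* had 7 reads in WT and 51 in Npffr1-KO. Among 5 adipocyte genes, 1 was past 1.5-fold, *Lep*, which encodes leptin, with 4210 normalized counts in WT and 8703 in Npffr1-KO, and the median log2 ratio was 0.15, or -0.12 after centring on genes of like length. *Fabp4*, *Cfd* and *Adipoq*, the most abundant of them, had 1.11-fold, 0.913-fold and 0.955-fold ratios.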
